A study of Mus musculus with 9 samples.

Results

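The genes described here carry out glycolysis or belong to the transcriptional response to low oxygen. The list holds 39 symbols, 17 for glycolytic enzymes and 22 for other hypoxia genes, which were looked up by symbol in an RNA-seq table of 12842 genes from cultured NPK mouse prostate cancer cells. By symbol 38 of the 39 were found, 16 enzymes and all 22 other hypoxia genes. The missing symbol was Pkm, the muscle-type pyruvate kinase, whose Ensembl identifier (ENSMUSG00000032294.9) is listed under the older symbol Pkm2. Its values are given below but enter no count of expression changes, while its promoter windows are counted with those of the members.

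Glycolysis splits glucose into pyruvate in the cytosol and yields ATP without oxygen, and lactate dehydrogenase then turns pyruvate into lactate, which leaves the cell through monocarboxylate transporters. The hypoxia-inducible factor HIF, a pair of an oxygen-regulated alpha subunit such as Hif1a and the constitutive partner Arnt, switches on many of these genes. When oxygen is present, prolyl hydroxylases of the Egln family mark the alpha subunit for degradation, so that much of the control of HIF acts on protein, which RNA-seq does not measure. Many tumours run glycolysis at a high rate with oxygen present.

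NPK cells were isolated by the authors from lung metastases of mice with prostate cancer driven by engineered mutations. All 3 groups share this background and growth in RPMI medium with serum, and each has 3 libraries. Control libraries are labelled as control cells. The study's methods give a pLKO.1 vector with an shRNA to luciferase as the control for silencing, and no label says whether these cells carried it or a vehicle. In shNsd2 libraries Nsd2, a histone H3 lysine 36 methyltransferase, was silenced by shRNA, for which the methods give pLKO.1 lentiviral vectors with more than 1 shRNA per gene. Which shRNA each library carries is not in the labels, and their second label reads Nsd2 in library 1, Nsd3 in library 2 and Nsd4 in library 3. MCTP libraries come from MCTP-treated cells and are labelled with the numbers 39, 40 and 41 in libraries 1, 2 and 3. The methods describe only number 39, a putative inhibitor of Nsd2. Whether the numbers name different compounds or run on with the library number is not in the labels. The MCTP libraries were fitted as a single group. Dose and time are not given for these cells. Poly-A RNA was sequenced, each library in more than 1 run.

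The values are log2 expression levels that the authors had scaled between libraries, so sequencing depth is unknown. Their transform is not named for these cells, and the methods state variance stabilization for the study's tumour profiles. The median SD within a group was 0.0296 for the lowest 10% of genes and 0.0751 for the highest 10%. Variance stabilization, where used, makes fold changes of weak genes too small. Every fold change below is a difference of group means on this log2 scale, and percentages of a control level are the same differences put back on a linear scale. Nothing in the labels says that the 3 libraries of a group came from separate cultures, so p-values measure the spread between these libraries, which may be technical. In bulk RNA, fewer cells with a transcript and less of it per cell cannot be told apart.

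Nsd2, listed under its older symbol Whsc1 (ENSMUSG00000057406.8), was at 12.48, 12.43 and 12.42 in control libraries, 11.56, 11.61 and 11.68 in shNsd2 libraries and 12.15, 12.21 and 12.07 in MCTP libraries. The groups did not overlap: shNsd2 libraries were lowest and MCTP libraries lay between. Nsd2 fell by 0.83 in shNsd2, to 56.3% of the control level, and by 0.30 in MCTP, to 81.2% (adjusted p = 2.3e-06 and 0.0056). Epithelial identity was visible in the keratins Krt8, Krt18 and Krt19 and in Cdh1, with control means of 16.28 ± 0.07, 15.38 ± 0.12, 16.20 ± 0.11 and 11.77 ± 0.07 (SD, n = 3), and prostate origin in Hoxb13 (10.28 ± 0.04). Other markers of the list went against it or had no row: Epcam was near the floor at 3.55 ± 0.01, and Krt5 and Pbsn were without a row. Of 7 leukocyte markers 1 had a row, Cd68 (6.53 ± 0.06 in control), of 5 endothelial markers Cdh5 (3.50 ± 0.02) and of 6 lung epithelial markers Ager (4.99 ± 0.06). Of 8 fibroblast markers 4 had a row, the most abundant being Col3a1 (10.80 ± 0.11). Of the 12 epithelial markers 9 had a row. Some markers changed with treatment, in either direction. Krt14 rose by 0.78 in shNsd2 and 1.19 in MCTP and Cd68 by 0.23 and 0.73, while Cdh1 fell by 0.20 and 0.34 and Col1a1 by 0.30 and 0.33. Krt19 changed by -0.34 in shNsd2 and 0.37 in MCTP. In shNsd2 Krt8, Col3a1, Trp63 and Pdgfra were also called, at -0.21, -0.28, -0.09 and 0.13, and without MCTP library 2 Krt8 and Hoxb13 in MCTP, at 0.35 (adjusted p = 0.0018) and 0.32 (adjusted p = 9.1e-04). These markers moved in the comparisons reported below, where their part in the result was not tested.

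The MCTP library 2, which carries the number 40, stood apart. Across genes, its Pearson correlation was 0.9979 with MCTP library 1 and 0.9964 with MCTP library 3, against 0.9995 between those, and genes are not independent replicates. Its mean correlation with the control libraries, 0.9967, was above that of MCTP libraries 1 (0.9947) and 3 (0.9926). Whether this reflects a different compound, if the number names one, or the library cannot be told apart. The main results that involve MCTP are therefore given with and without it. Control library 1 was a weaker exception, at 0.9992 and 0.9989 with control libraries 2 and 3, which correlated at 0.9998.

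Each pair of groups was compared gene by gene with limma, and genes with a Benjamini-Hochberg adjusted p under 0.05 over all genes tested are called changed. A gene was tested if its value was above a floor of 3.78 in at least 3 of the 6 libraries, the floor being the middle of the lowest 10% of the table's values. Of the 38 members 37 were tested in all 3 comparisons. The exception was Adm, which encodes the vasodilator peptide adrenomedullin and lay under the floor in every library, between 3.03 and 3.16. The comparisons of shNsd2 and of MCTP with control share the control libraries, so their values are set side by side and are not independent of each other.

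Hypoxia genes other than the enzymes were mostly lower after Nsd2 silencing. The share of enzymes called lay near or below that of all genes and is not read as a result about them. In shNsd2 against control, 47.8% of all 12205 genes were called, 23.1% higher and 24.8% lower. Of the 21 other hypoxia genes tested with limma, 17 (81.0%) were lower and 0 higher, and 0 were higher at an unadjusted p under 0.05, with a median log2 fold change of -0.27, where the median of all genes was 0.00. The members were chosen with earlier results of these data known, so this contrast, like that for MCTP below, describes the list. Of the 16 enzymes, 6 (37.5%) were called, 1 higher and 5 lower, with a median of -0.04. With quantile normalization 7 enzymes (43.8%) were called, 2 higher and 5 lower, beside 48.2% of all genes, which had 3102 higher and 2779 lower. The median of the enzymes ran from -0.07 without control library 1 to 0.0046 without shNsd2 library 3, and without the latter 2 were called higher and 4 lower, beside 46.3% of all genes. Leaving out control library 1 gave 6 enzymes and 18 other hypoxia genes, beside 49.3% of all genes.

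In MCTP against control, where 35.2% of 12216 genes were called (18.0% higher and 17.2% lower), the pattern of counts was similar. Of the 21 other hypoxia genes 15 (71.4%) were called, 14 lower and 1 higher, with a median of -0.30 beside -0.01 for all genes. Of the 16 enzymes 4 (25.0%) were called, 3 lower and 1 higher, and their median was 0.06. That median was 0.14 without MCTP library 2 and 0.09 with median centring, and below 0 with quantile normalization (-0.01), with a correction for GC content (-0.03) and without MCTP library 3 (-0.02). Without MCTP library 2, 7372 of 12203 genes were called, with 17 of the other hypoxia genes, 16 lower and 1 higher, and 8 enzymes, 5 higher and 3 lower. The number of genes called was 2029 without MCTP library 1, 2830 without MCTP library 3, and 2363, 2157 and 2451 without control library 1, 2 and 3. In each of these 5 cases 12 or 13 of the other hypoxia genes and 4 enzymes were called.

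Between shNsd2 and MCTP, 43.2% of 12217 genes were called, 20.6% higher and 22.6% lower in shNsd2. Of the 21 other hypoxia genes 8 (38.1%) were called, 4 in each direction, and of the 16 enzymes 5, 1 higher and 4 lower. Both shares lie near or below that of all genes. With the correction for GC content 6875 of 11935 genes (57.6%), 13 of the other hypoxia genes (61.9%) and 5 enzymes were called, and in a fit of all 9 libraries 49.4%, 12 (57.1%) and 6. With MCTP library 2 left out, 7756 of 12191 genes, 16 of the other hypoxia genes and 11 enzymes were called. Without shNsd2 library 1, 2 or 3 the genes called were 3564, 3424 and 3414, with 3 enzymes each time and 5, 6 and 5 of the other hypoxia genes. Without MCTP library 1 they were 3361, with 3 enzymes and 6 of the other hypoxia genes.

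Glucose enters these cells through transporters such as Slc2a1 (GLUT1) and is trapped by hexokinases, which phosphorylate it. Slc2a1 was lower in shNsd2 by a small margin, with a log2 fold change of -0.14 (adjusted p = 0.039), and was not called in MCTP at -0.14 (adjusted p = 0.17), but was with the correction for GC content, at -0.21 (adjusted p = 0.0058). Its MCTP value without MCTP library 2 was -0.08 (adjusted p = 0.28). The call in shNsd2 was lost without any one of 5 of the 6 libraries, all but control 1, with values from -0.16 to -0.11, with median centring, at -0.13 (adjusted p = 0.08), and in a fit of all 9 libraries, at -0.14 (adjusted p = 0.10). Of the hexokinases, Hk1 is the broadly expressed form and Hk2 the form induced by insulin and by HIF. Hk2 was at 13.27, 13.37 and 13.42 in control libraries, 13.21, 13.26 and 13.28 in shNsd2 libraries and 12.98, 12.92 and 12.96 in MCTP libraries. All 3 MCTP libraries were below all others, and shNsd2 and control overlapped. Its log2 fold change was -0.40 (SE 0.06, adjusted p = 0.0021) in MCTP, -0.38 (adjusted p = 2.4e-04) without MCTP library 2, and -0.11 (adjusted p = 0.079) in shNsd2, where it was called without control library 1, at -0.15 (adjusted p = 0.0078), and with the correction for GC content, at -0.12 (adjusted p = 0.016). Hk1 showed the other order: it was lower in shNsd2, -0.22 (adjusted p = 0.0051), and was not called in MCTP, 0.01 (adjusted p = 0.93), nor between the treatments, -0.23 (adjusted p = 0.058). That difference was called without MCTP library 2, -0.32 (adjusted p = 5.2e-04), with the correction for GC content, -0.19 (adjusted p = 0.011), with quantile normalization, -0.23 (adjusted p = 0.015), and in a fit of all 9 libraries, -0.23 (adjusted p = 0.031).

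The abundant form of the enzyme at each later step was not called in any of the 3 comparisons with all libraries and the settings above. These 9 genes are Gpi1 (glucose-6-phosphate isomerase), Pfkl (the liver form of phosphofructokinase), Aldoa (aldolase A), Tpi1 (triosephosphate isomerase), Gapdh (glyceraldehyde-3-phosphate dehydrogenase), Pgk1 (phosphoglycerate kinase), Pgam1 (phosphoglycerate mutase), Eno1 (enolase 1) and Ldha (lactate dehydrogenase A). Their log2 fold changes ran from -0.08 to 0.16 in shNsd2 and from -0.02 to 0.17 in MCTP, with smallest limma adjusted p values of 0.067 and 0.15. At an unadjusted p under 0.05 they were 1 of 9 in shNsd2, Gapdh, and 0 of 9 in MCTP and between the treatments. Gapdh, the most abundant by its deposited value, was at 18.13, 18.27 and 18.23 in control libraries, 18.44, 18.41 and 18.28 in shNsd2 libraries and 18.30, 18.08 and 18.47 in MCTP libraries. Its shNsd2 libraries were all above its control libraries, by a mean of 0.16 (adjusted p = 0.067), and it was called without shNsd2 library 3, at 0.21 (adjusted p = 0.035). In shNsd2, quantile normalization gave calls for Eno1, 0.15 (adjusted p = 0.0046), and Pgk1, -0.10 (adjusted p = 0.011), and limma without a trend one for Gapdh, 0.16 (adjusted p = 0.033). The correction for GC content moved Pfkl, Aldoa, Tpi1, Gapdh and Eno1 below 0 in MCTP, to -0.04, -0.06, -0.06, -0.03 and -0.02. In some libraries the 9 genes moved together. In control library 1 all were below their control mean, by 0.04 to 0.12, and in MCTP library 2 by 0.00 to 0.20. All were above it in control library 2, by 0.04 to 0.07, in MCTP library 1, by 0.03 to 0.21, and in MCTP library 3, by 0.08 to 0.33. Without MCTP library 2, where 60.4% of all genes were called in MCTP and 63.6% between the treatments, 4 of the 9 were called higher in MCTP: Gpi1 at 0.25 (adjusted p = 0.0083), Pfkl at 0.16 (adjusted p = 0.034), Pgam1 at 0.25 (adjusted p = 0.0037) and Ldha at 0.23 (adjusted p = 0.015). Between the treatments, Gpi1, Tpi1, Pgk1 and Pgam1 were then called lower in shNsd2, at -0.24 (adjusted p = 0.0055), -0.20 (adjusted p = 0.028), -0.15 (adjusted p = 0.028) and -0.18 (adjusted p = 0.014). Pkm, found by its identifier, was at 17.18, 17.31 and 17.27 in control libraries, 17.42, 17.37 and 17.25 in shNsd2 libraries and 17.34, 17.10 and 17.46 in MCTP libraries. Its groups overlapped, with log2 fold changes of 0.10 (adjusted p = 0.22) in shNsd2 and 0.05 (adjusted p = 0.74) in MCTP. Gapdh, Aldoa, Pgk1, Tpi1, Ldha, Eno1, Pgam1 and Pkm have pseudogene copies close in sequence, and how reads shared with them were counted is not given in the sources used here.

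The enzymes that changed most were alternative forms. Aldoc, the aldolase best known from brain, was at 10.23, 10.31 and 10.34 in control libraries, 9.18, 9.01 and 9.01 in shNsd2 libraries and 9.73, 9.44 and 9.74 in MCTP libraries. No groups overlapped: shNsd2 libraries were lowest, MCTP libraries between. Aldoc changed by -1.23 (SE 0.06, adjusted p = 1.5e-06) in shNsd2, to 42.7% of the control level, and by -0.65 (SE 0.09, adjusted p = 0.0018) in MCTP, to 63.5%. It also differed between shNsd2 and MCTP, by -0.57 (adjusted p = 0.0028), and without MCTP library 2 the MCTP value was -0.56 (adjusted p = 3.0e-05). Pfkp, the platelet form of phosphofructokinase, the committing step of glycolysis, was at 12.71, 12.86 and 12.87 in control libraries, 12.23, 12.22 and 12.24 in shNsd2 libraries and 12.31, 12.12 and 12.34 in MCTP libraries. The 3 shNsd2 libraries were almost the same, and every treated library was below every control library. Its fold changes were -0.58 (SE 0.05, adjusted p = 2.5e-05) in shNsd2 and -0.56 (SE 0.08, adjusted p = 0.0018) in MCTP, -0.49 (adjusted p = 8.4e-05) without MCTP library 2, and it was not called between the treatments, -0.03 (adjusted p = 0.76). In that comparison it was called without MCTP library 2, at -0.09 (adjusted p = 0.049).

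Smaller changes were seen in 3 further forms. Pfkm, the muscle phosphofructokinase, was lower in shNsd2, -0.17 (adjusted p = 0.0053), and not called in MCTP, 0.06 (adjusted p = 0.50). Eno2, the neuronal enolase, was weakly expressed, with a control mean of 5.49 ± 0.08, and lower in shNsd2, -0.11 (adjusted p = 0.049), a call lost when any library other than control 2 was left out, with values from -0.12 to -0.08. It was also lost with quantile normalization, -0.10 (adjusted p = 0.064), with median centring, -0.10 (adjusted p = 0.085), without a trend, -0.11 (adjusted p = 0.067), and in a fit of all 9 libraries, -0.11 (adjusted p = 0.054). Ldhb, the lactate dehydrogenase subunit that favours pyruvate, was also weakly expressed, with a control mean of 5.48 ± 0.02. With all libraries, it was the only enzyme called higher in both comparisons with control, 0.18 (adjusted p = 0.0017) in shNsd2 and 0.29 (adjusted p = 0.0013) in MCTP, and its libraries did not overlap between groups.

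Per length of transcript, aldolase, enolase and lactate dehydrogenase each rested mainly on 1 form. Subtracting the log2 of the representative transcript length in kb, the control mean of Aldoa was 15.48 and that of Aldoc 8.81, that of Eno1 15.98, of Eno3 11.80 and of Eno2 4.01, and that of Ldha 15.64 and of Ldhb 5.09. On a linear scale Aldoc was 0.976% ± 0.036 (SD, n = 3) of the sum of both aldolases in control, 0.412% ± 0.017 in shNsd2 and 0.606% ± 0.030 in MCTP. Eno3, outside the members, was 5.22% ± 0.030 of the 3 enolases in control, 4.99% ± 0.099 in shNsd2 and 6.20% ± 0.048 in MCTP. Phosphofructokinase was more evenly shared. Pfkp was 32.7% ± 0.24 of the sum of the 3 forms per length in control, 24.1% ± 0.96 in shNsd2 and 24.1% ± 0.78 in MCTP, and Pfkl 58.5% ± 0.11, 67.4% ± 1.2 and 66.0% ± 1.2. Hk2 was 34.8% ± 0.53 of the sum of Hk1 and Hk2 in control, 36.6% ± 1.6 in shNsd2 and 28.6% ± 2.0 in MCTP. These shares rest on transformed values and 1 transcript length per gene and were not tested.

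**Figure D1:**
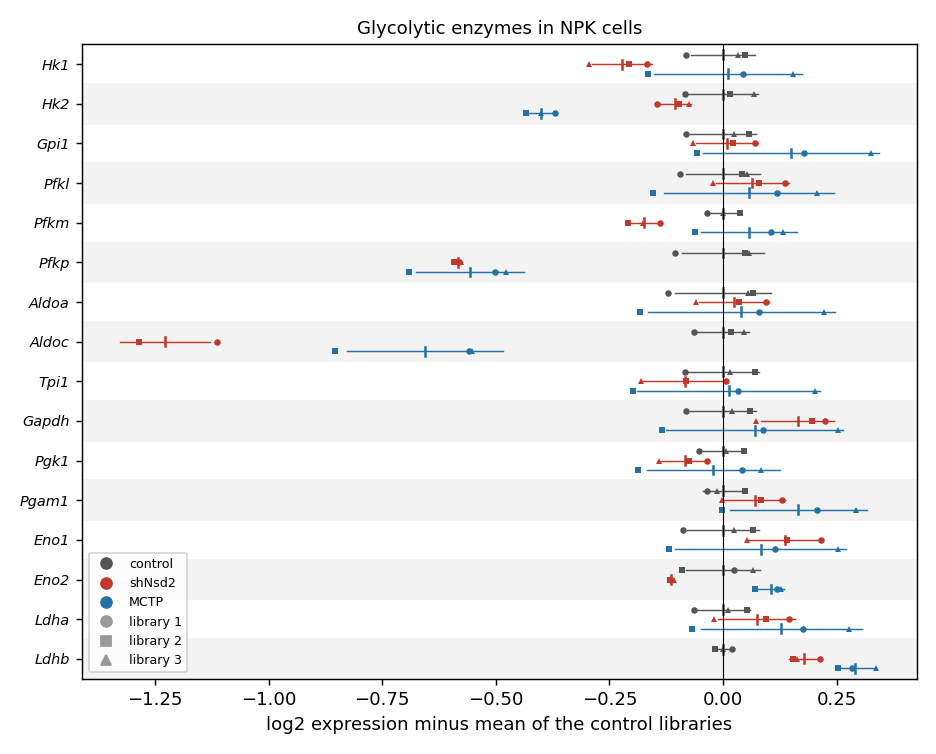
Log2 expression of the 16 glycolytic enzymes found by symbol, in the order of the pathway, as the difference of each library from the mean of the control libraries, with libraries as points (3 per group, shape by library number), group means as vertical bars and 1 SD on each side as horizontal lines. Aldoc and Pfkp lie below control in every treated library, and MCTP library 2 lies below the other MCTP libraries for all 16 enzymes.

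Lactate leaves the cell through Slc16a1 (MCT1) and Slc16a3 (MCT4), the latter being the form linked to export from glycolytic cells. Slc16a1 was lower in both treatments, -0.26 (adjusted p = 0.0012) in shNsd2 and -0.34 (adjusted p = 0.0078) in MCTP, with no overlap with control, and with the correction for GC content the MCTP value was -0.18 (adjusted p = 0.023). Slc16a3 was lower in shNsd2, -0.36 (adjusted p = 5.5e-04), and not called in MCTP, -0.13 (adjusted p = 0.29), where library 2 lay below its control libraries while libraries 1 and 3 lay within their range. Its MCTP value without MCTP library 2 was -0.03 (adjusted p = 0.69). The 2 treatments did not differ in Slc16a3 beyond the threshold, -0.23 (adjusted p = 0.072), and did so without MCTP library 2, at -0.33 (adjusted p = 3.2e-04). With the correction for GC content Slc16a3 was called in MCTP, -0.22 (adjusted p = 0.0082), and between the treatments, -0.19 (adjusted p = 0.015), the latter also with quantile normalization, -0.23 (adjusted p = 0.049), and in a fit of all 9 libraries, -0.23 (adjusted p = 0.042).

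Pyruvate dehydrogenase kinases keep pyruvate out of mitochondria by inactivating pyruvate dehydrogenase, and Pdk1 is a known HIF target. Pdk1 was at 12.56, 12.52 and 12.50 in control libraries, 12.05, 12.05 and 12.10 in shNsd2 libraries and 12.18, 12.14 and 12.05 in MCTP libraries. Every treated library lay below every control library. The log2 fold change was -0.46 (SE 0.03, adjusted p = 1.7e-05) in shNsd2, to 72.8% of control, and -0.40 (SE 0.05, adjusted p = 0.0015) in MCTP, to 75.7%, or -0.41 (adjusted p = 1.4e-04) without MCTP library 2. Pdk3 was not called in shNsd2, -0.05 (adjusted p = 0.32), and was called lower in MCTP, -0.18 (adjusted p = 0.026), a call lost without MCTP library 1 or 3 or any control library, with values from -0.20 to -0.18, and with quantile normalization, -0.14 (adjusted p = 0.065), or median centring, -0.15 (adjusted p = 0.069).

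The bifunctional enzymes of the Pfkfb family make and remove fructose-2,6-bisphosphate, the strongest activator of phosphofructokinase, and Pfkfb3 favours its synthesis. Pfkfb3 was at 8.70, 8.72 and 8.74 in control libraries, 8.59, 8.60 and 8.54 in shNsd2 libraries and 9.12, 9.12 and 9.13 in MCTP libraries. With all libraries, it was the only member called above control in MCTP and below control in shNsd2. Its fold changes were 0.40 (SE 0.05, adjusted p = 0.0012) in MCTP, to 132% of control, -0.15 (adjusted p = 0.016) in shNsd2 and -0.55 (adjusted p = 1.7e-04) between the treatments. The shNsd2 call was lost without control library 3, at -0.14 (adjusted p = 0.052), and with quantile normalization, at -0.11 (adjusted p = 0.076), and the MCTP value without MCTP library 2 was 0.40 (adjusted p = 1.7e-04). Pfkfb4 was not called in shNsd2, -0.11 (adjusted p = 0.093), but was without control library 1, -0.15 (adjusted p = 0.015), and with the correction for GC content, -0.15 (adjusted p = 0.0065). It was lower in MCTP, -0.27 (adjusted p = 0.023), a call lost without MCTP library 1, -0.31 (adjusted p = 0.053), or without control library 2 or 3, -0.25 (adjusted p = 0.09) and -0.25 (adjusted p = 0.082), and with quantile normalization, -0.26 (adjusted p = 0.0501). Per length, Pfkfb3 made up 44.6% ± 1.0 of both Pfkfb members in control, 43.9% ± 0.57 in shNsd2 and 56.2% ± 1.7 in MCTP, a description without a test.

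The transcript of the HIF alpha subunit itself was lower. Hif1a was at 14.07, 13.92 and 13.84 in control libraries, 13.50, 13.42 and 13.69 in shNsd2 libraries and 13.08, 13.56 and 12.96 in MCTP libraries. All treated libraries were below all control libraries, and MCTP library 2 lay within the range of the shNsd2 libraries, far above MCTP libraries 1 and 3. Hif1a changed by -0.40 (SE 0.08, adjusted p = 0.0027) in shNsd2 and by -0.74 (SE 0.15, adjusted p = 0.0084) in MCTP. Without MCTP library 2 the MCTP value was -0.92 (adjusted p = 6.8e-06), and the difference between the treatments, 0.34 (adjusted p = 0.11) with all libraries, was 0.52 (adjusted p = 2.4e-04). With all libraries and the correction for GC content that difference was 0.19 (adjusted p = 0.057), and the MCTP value was -0.54 (adjusted p = 4.4e-04). On the same strand Hif1a overlaps Gm49321 in GENCODE M21, and reads in the shared bases could belong to either.

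The prolyl hydroxylases oppose HIF, and Egln1 and Egln3 are themselves induced by it. Egln3 was at 12.95, 13.00 and 12.94 in control libraries, 12.40, 12.41 and 12.34 in shNsd2 libraries and 12.55, 12.44 and 12.55 in MCTP libraries. Both treated groups lay below control without overlap. Its fold changes were -0.58 (SE 0.04, adjusted p = 6.7e-06) in shNsd2, to 66.8% of control, and -0.45 (SE 0.05, adjusted p = 8.9e-04) in MCTP, to 73.2%, or -0.42 (adjusted p = 5.9e-05) without MCTP library 2. Egln1 was lower in shNsd2, -0.27 (adjusted p = 3.4e-04), and just missed the threshold in MCTP, -0.16 (adjusted p = 0.0504), where it was called without MCTP library 2, -0.12 (adjusted p = 0.04). Egln1 was also called in MCTP with the correction for GC content, -0.26 (adjusted p = 6.0e-04), with quantile normalization, -0.15 (adjusted p = 0.033), without a trend, -0.16 (adjusted p = 0.048), and in a fit of all 9 libraries, -0.16 (adjusted p = 0.019).

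Of 8 other subunits and regulators of HIF 7 had a row and 6 were tested. In shNsd2 1 was called higher and 1 lower, in MCTP 1 lower, and between the treatments 0 of 6 were called with limma, with 1 of 6 at an unadjusted p under 0.05. The shares of all genes called were 47.8%, 35.2% and 43.2%. Between the treatments 2 of 6 were called with the correction for GC content (57.6% of all genes) and 1 of 6 with quantile normalization (44.1%) or in a fit of all 9 libraries (49.4%). Without the filter Arnt2 was called in MCTP, 0.11 (adjusted p = 0.018). In MCTP the count became 2 of 6 without MCTP library 2 (60.4% of all genes). Between the treatments it was 1 of 6 without MCTP library 3 (38% of all genes) and 2 of 6 without MCTP library 2 (63.6% of all genes). The gene called in both treatments against control was Arnt, the partner of the alpha subunits, at -0.18 (adjusted p = 0.0036) and -0.28 (adjusted p = 0.0042). Hif1an, an asparagine hydroxylase that blocks the activity of HIF, was higher in shNsd2, 0.22 (adjusted p = 0.0012), and was not called in MCTP, 0.08 (adjusted p = 0.28), nor between the treatments, 0.14 (adjusted p = 0.062), but differed between them with the correction for GC content, 0.17 (adjusted p = 0.0027), and in a fit of all 9 libraries, 0.14 (adjusted p = 0.029). Epas1, another HIF alpha subunit, was near the floor at 4.39 ± 0.04 in control, with log2 fold changes of 0.01 (adjusted p = 0.80) in shNsd2 and -0.04 (adjusted p = 0.28) in MCTP.

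Among the remaining targets the largest change was that of Ero1l, an oxidase that drives disulfide formation in the endoplasmic reticulum. Ero1l was at 12.96, 13.06 and 13.08 in control libraries, 12.27, 12.25 and 12.44 in shNsd2 libraries and 11.84, 12.01 and 11.77 in MCTP libraries. The 3 groups were fully apart, with MCTP lowest. It changed by -0.71 (SE 0.06, adjusted p = 2.4e-05) in shNsd2, to 61.1% of control, and by -1.16 (SE 0.07, adjusted p = 6.9e-05) in MCTP, to 44.7%. The treatments differed by 0.45 (adjusted p = 0.0035), and without MCTP library 2 the MCTP value was -1.23 (adjusted p = 2.5e-07). With the correction for GC content the MCTP value was -0.97 (adjusted p = 1.9e-05).

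Bnip3 and Bnip3l encode mitochondrial proteins that mark mitochondria for autophagy. Bnip3 was at 12.59, 12.48 and 12.44 in control libraries, 11.81, 11.86 and 11.87 in shNsd2 libraries and 12.26, 12.26 and 12.10 in MCTP libraries. Here shNsd2 was lowest and MCTP lay between, with no overlap. The fold changes were -0.66 (SE 0.04, adjusted p = 9.7e-06) in shNsd2 and -0.30 (SE 0.06, adjusted p = 0.012) in MCTP, and -0.36 (adjusted p = 0.0022) between them, or -0.33 (adjusted p = 0.0013) for MCTP without library 2. With the correction for GC content the MCTP value was -0.11 (adjusted p = 0.14), no longer past the threshold. Bnip3l was at 12.72, 12.66 and 12.55 in control libraries, 12.20, 12.18 and 12.25 in shNsd2 libraries and 12.30, 12.33 and 12.15 in MCTP libraries. Its treated groups overlapped each other and lay below control. It changed by -0.43 (SE 0.05, adjusted p = 1.4e-04) in shNsd2 and by -0.38 (SE 0.07, adjusted p = 0.0057) in MCTP, or -0.42 (adjusted p = 3.5e-04) without MCTP library 2. With the correction for GC content the MCTP value was -0.20 (adjusted p = 0.012), and Bnip3l then differed between the treatments, -0.17 (adjusted p = 0.014), where it was -0.04 (adjusted p = 0.57) without it.

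Ndrg1, a stress-responsive gene linked to suppression of metastasis, was at 12.69, 13.02 and 13.06 in control libraries, 12.53, 12.52 and 12.55 in shNsd2 libraries and 12.35, 12.12 and 12.45 in MCTP libraries. Control library 1 was the lowest control, yet all treated libraries lay below it. Ndrg1 changed by -0.39 (SE 0.08, adjusted p = 0.0049) in shNsd2 and by -0.62 (SE 0.12, adjusted p = 0.0069) in MCTP, or -0.53 (adjusted p = 1.0e-03) without MCTP library 2. P4ha1, a subunit of collagen prolyl hydroxylase, was at 12.25, 12.35 and 12.41 in control libraries, 11.92, 11.91 and 11.96 in shNsd2 libraries and 12.11, 11.97 and 12.04 in MCTP libraries. Both treated groups were below control. It changed by -0.41 (adjusted p = 1.2e-04) in shNsd2 and -0.30 (adjusted p = 0.0091) in MCTP, or -0.26 (adjusted p = 0.0023) without MCTP library 2. Its relative P4ha2 was called in shNsd2, -0.23 (adjusted p = 0.0017), with -0.04 (adjusted p = 0.66) in MCTP and a difference between the treatments of -0.19 (adjusted p = 0.051), which was called without MCTP library 2, -0.25 (adjusted p = 5.0e-04). The MCTP value of P4ha2 without MCTP library 2 was 0.03 (adjusted p = 0.69). With the correction for GC content P4ha2 was called in MCTP, -0.12 (adjusted p = 0.048), and between the treatments, -0.15 (adjusted p = 0.009). The latter difference was also called with quantile normalization, -0.20 (adjusted p = 0.028), and in a fit of all 9 libraries, -0.19 (adjusted p = 0.028).

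Ankrd37, an ankyrin repeat protein induced by HIF, was at 7.85, 7.84 and 7.82 in control libraries, 7.44, 7.44 and 7.41 in shNsd2 libraries and 7.71, 7.56 and 7.63 in MCTP libraries. The shNsd2 libraries were lowest and the MCTP libraries lay between. It changed by -0.41 (adjusted p = 5.5e-05) in shNsd2 and -0.20 (adjusted p = 0.028) in MCTP, or -0.17 (adjusted p = 0.025) without MCTP library 2. The MCTP call was lost without MCTP library 3, -0.20 (adjusted p = 0.066), and without any 1 of the control libraries, with adjusted p between 0.077 and 0.091, and with median centring, -0.17 (adjusted p = 0.061). Ankrd37 overlaps Lrp2bp on the opposite strand, and whether strand was used in counting is not given in the sources used here.

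Some targets were called in MCTP and not in shNsd2. Vegfa, the growth factor for blood vessels, was at 12.14, 12.25 and 12.28 in control libraries, 11.99, 12.11 and 12.21 in shNsd2 libraries and 11.85, 11.81 and 11.73 in MCTP libraries. The MCTP libraries were lowest, and shNsd2 overlapped control. It changed by -0.43 (SE 0.06, adjusted p = 0.0019) in MCTP, to 74.3% of control, or -0.44 (adjusted p = 1.6e-04) without MCTP library 2, and by -0.12 (adjusted p = 0.12) in shNsd2, where it was called without control library 1, -0.16 (adjusted p = 0.032), without shNsd2 library 3, -0.17 (adjusted p = 0.034), and with the correction for GC content, -0.14 (adjusted p = 0.037). Ddit4, an inhibitor of mTORC1 induced by several stresses, had fold changes of -0.38 (adjusted p = 0.0042) in MCTP and -0.02 (adjusted p = 0.65) in shNsd2. Both genes differed between the treatments, Vegfa by 0.31 (adjusted p = 0.0081) and Ddit4 by 0.35 (adjusted p = 0.0021).

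The last members were small changes. Car9, a carbonic anhydrase often used as a marker of hypoxia, was weakly expressed, with a control mean of 4.85 ± 0.05, and was lower in shNsd2, -0.15 (adjusted p = 0.0048), with -0.04 (adjusted p = 0.41) in MCTP. Kdm3a, a histone H3 lysine 9 demethylase, was lower in shNsd2 at the threshold, -0.13 (adjusted p = 0.048), and this call was lost without shNsd2 library 1 or 2 or any 1 of the control libraries, with values from -0.15 to -0.10. It was also lost with the correction for GC content, -0.08 (adjusted p = 0.056), with median centring, -0.12 (adjusted p = 0.057), without a trend, -0.13 (adjusted p = 0.055), and in a fit of all 9 libraries, -0.13 (adjusted p = 0.21). In MCTP it was called without MCTP library 2, -0.27 (adjusted p = 0.0017), against -0.19 (adjusted p = 0.11) with all libraries. Adm, below the floor, was tested only in the fit without a filter, at -0.11 (adjusted p = 4.0e-04) in shNsd2, -0.07 (adjusted p = 0.019) in MCTP and -0.04 (adjusted p = 0.089) between the treatments. In that fit 18 of 22 other hypoxia genes were called in shNsd2 and 16 of 22 in MCTP, beside 46.8% and 35.0% of all genes.

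**Figure D2:**
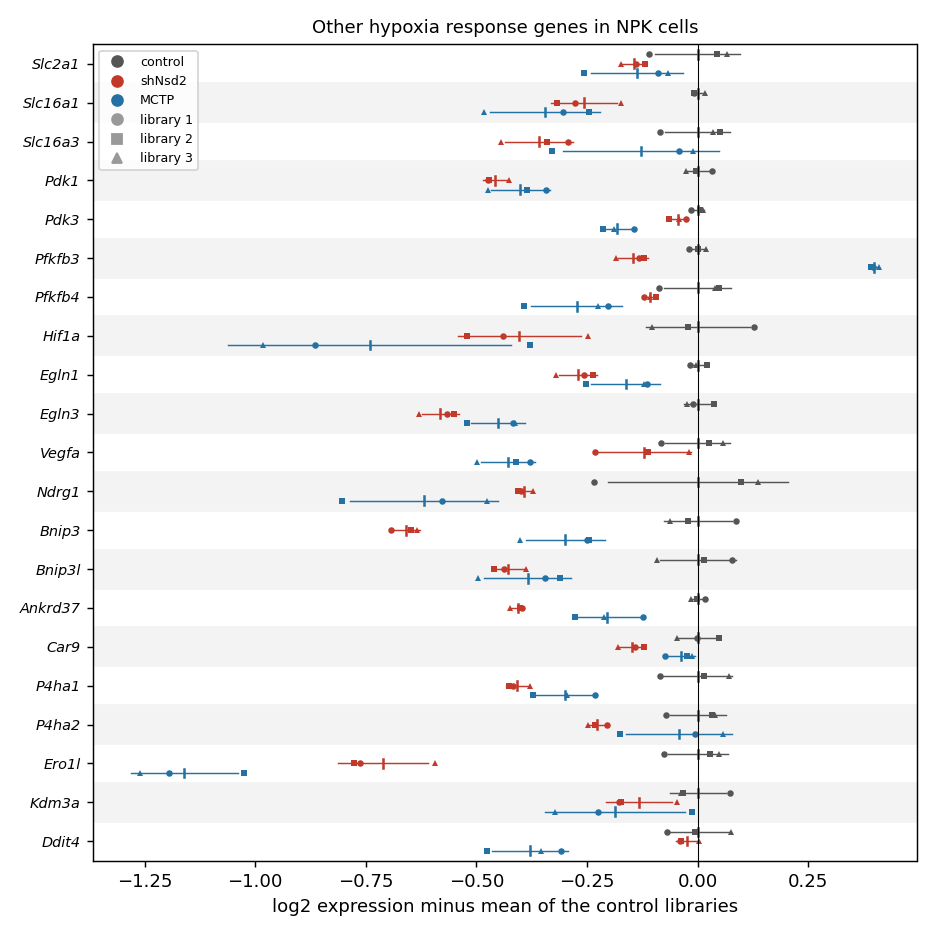
Log2 expression of the 21 other hypoxia genes that were tested, as the difference of each library from the mean of the control libraries, with libraries as points (3 per group, shape by library number), group means as vertical bars and 1 SD on each side as horizontal lines. Most treated libraries lie left of the control mean at 0, and the 3 MCTP libraries of Pfkfb3 lie right of it, at a mean of 0.40.

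The treatments differed from each other in some members. Between shNsd2 and MCTP, the other hypoxia genes lower in shNsd2 were Pfkfb3, Bnip3, Ankrd37 and Car9, and those higher in shNsd2 were Ero1l, Vegfa, Ddit4 and Pdk3. Among the enzymes Hk2 was higher in shNsd2, 0.29 (adjusted p = 0.0021), and Aldoc, Pfkm, Eno2 and Ldhb were lower. The calls of Pfkm, -0.23 (adjusted p = 0.021), Ldhb, -0.11 (adjusted p = 0.041), Pdk3, 0.14 (adjusted p = 0.045), Ankrd37, -0.20 (adjusted p = 0.019), and Car9, -0.11 (adjusted p = 0.02), were each lost without at least 3 of the 6 libraries in turn, with adjusted p up to 0.16. Quantile normalization also lost those of Ldhb, -0.06 (adjusted p = 0.28), Pdk3, 0.11 (adjusted p = 0.093), Ankrd37, -0.17 (adjusted p = 0.054), and Car9, -0.07 (adjusted p = 0.086). The correction for GC content lost Ldhb, -0.08 (adjusted p = 0.11), and Car9, -0.07 (adjusted p = 0.21), as did limma without a trend, and median centring lost Pdk3, 0.12 (adjusted p = 0.095). Slc2a1, Pfkfb4, Egln1 and Kdm3a, called against control in 1 treatment and not in the other, did not differ between the treatments beyond the threshold, at -0.01 (adjusted p = 0.94), 0.17 (adjusted p = 0.065), -0.11 (adjusted p = 0.15) and 0.05 (adjusted p = 0.62). With MCTP library 2 left out Egln1 and Kdm3a were called, at -0.15 (adjusted p = 0.0088) and 0.14 (adjusted p = 0.04), as was P4ha1, at -0.15 (adjusted p = 0.011) against -0.11 (adjusted p = 0.12) with all libraries. Pfkfb4 was called with the correction for GC content, at 0.21 (adjusted p = 0.002), and in a fit of all 9 libraries, at 0.17 (adjusted p = 0.045). Egln3, at -0.13 (adjusted p = 0.068), and Ndrg1, at 0.23 (adjusted p = 0.055), were called with quantile normalization, -0.14 (adjusted p = 0.027) and 0.22 (adjusted p = 0.035), and with the correction for GC content, -0.10 (adjusted p = 0.03) and 0.26 (adjusted p = 0.0045). Both were also called without MCTP library 2, at -0.17 (adjusted p = 0.0053) and 0.14 (adjusted p = 0.02), Egln3 in a fit of all 9 libraries, -0.13 (adjusted p = 0.032), and Ndrg1 without MCTP library 3, 0.30 (adjusted p = 0.016). The calls of Aldoc, Eno2, Hk2, Pfkfb3, Bnip3, Ero1l, Vegfa and Ddit4 were kept without each of the 6 libraries.

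A second list of 27 genes known to be induced by hypoxia, outside the members, gave counts in the same direction for shNsd2. Of these 25 had a row and 24 were tested. In shNsd2 17 (70.8%) were called, 16 lower and 1 higher, with a median of -0.23. In MCTP 11 (45.8%) were called, 7 lower and 4 higher, with a median of -0.12, and between the treatments 9 (37.5%), 2 higher and 7 lower in shNsd2. Of all genes 47.8%, 35.2% and 43.2% were called in these comparisons. With the correction for GC content the counts were 19 (79.2%), 16 (66.7%) and 15 (62.5%) of 24, beside 56.8%, 47.0% and 57.6% of all genes. Between the treatments they were 12 with quantile normalization, 11 with median centring and 13 in a fit of all 9 libraries, beside 44.1%, 42.0% and 49.4%. Without MCTP library 2 the MCTP count was 13 of 24, with a median of -0.08, beside 60.4%. In MCTP the count became 5 of 24 without control library 2 (17.7% of all genes) and 6 of 24 without control library 3 or MCTP library 1 (16.6% to 20.1% of all genes). Between the treatments it was 16 of 24 without MCTP library 2 (63.6% of all genes). The list was drawn up with earlier results of these data known and is not independent of the members.

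By size, the genes of that list that changed most were Vldlr, Bhlhe40, Angptl4 and Hmox1. Vldlr, a lipoprotein receptor, was at 11.05, 11.16 and 11.28 in control libraries, 10.20, 10.25 and 10.46 in shNsd2 libraries and 9.96, 10.07 and 9.83 in MCTP libraries. The groups were apart, with MCTP lowest. It changed by -0.86 (adjusted p = 4.7e-05) in shNsd2, to 55.0% of control, and -1.21 (adjusted p = 9.5e-05) in MCTP. Bhlhe40, a transcriptional repressor, changed by -0.69 (adjusted p = 1.4e-05) in shNsd2 and -0.47 (adjusted p = 0.0024) in MCTP. Angptl4, a secreted inhibitor of lipoprotein lipase, was at a mean of 9.90 ± 0.06 in control, 9.35 ± 0.07 in shNsd2 and 10.92 ± 0.20 in MCTP, with no overlap. It lay below control in shNsd2, -0.55 (adjusted p = 5.3e-05), and above it in MCTP, 1.02 (adjusted p = 3.9e-04), to 202% of control, a difference between the treatments of -1.57 (adjusted p = 4.8e-05). Fam162a and Car12 showed the same pair of directions, -0.43 (adjusted p = 2.9e-05) and 0.18 (adjusted p = 0.019) for Fam162a and -0.27 (adjusted p = 0.0033) and 0.18 (adjusted p = 0.043) for Car12. The MCTP call of Fam162a was lost without MCTP library 1 or any 1 of the control libraries, and that of Car12 without any library other than MCTP 2. Hmox1, heme oxygenase, was the gene of the list called higher in shNsd2, 0.35 (adjusted p = 9.1e-04), and was also higher in MCTP, 0.70 (adjusted p = 0.0013).

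HIF binds DNA at hypoxia response elements, whose core letters are ACGTG or GCGTG. These letters were searched on both strands in the 250 bases before each start of transcription in the RefSeq promoters of GRCm38.p6. Matched by symbol were 37 of the 39 members, with 53 windows. The members without an entry were Ndrg1 and Bnip3l. The letters CACGTG read as ACGTG on both strands. ACGTG was found in 26 of the 53 windows (49.1%), against 16.6% of all 32851 windows, GCGTG in 30 (56.6%), against 28.2%, and either in 42 (79.2%), against 38.6%. Windows of the same gene can overlap and hold the same site, and many of all windows belong to genes outside the deposited table. By gene, 34 of 37 members (91.9%) had either string in at least 1 window, against 62.0% of 9697 genes of the deposited table with a window. For ACGTG these shares were 62.2% and 25.1%, and for GCGTG 70.3% and 50.8%. Among the enzymes these were 14 of 17 and among the other hypoxia genes 20 of 20. Hk1, Aldoa, Pkm and Vegfa had neither string in the first of their windows and counted through a later one. That of Vegfa lies inside the gene, and its matches touch an annotated exon. In 43 of the 53 windows the first transcribed bases occurred in a GENCODE transcript of the gene. Members were named as hypoxia genes, so a high share is a description of the list, and a match is not a binding site. Members whose fold changes missed the threshold, such as Ldha and Pgk1, held ACGTG as well.

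Windows are shown for 5 members that were lower in both treatments, all outside annotated exons of GENCODE M21, with the strings in capitals, written 5′ to 3′ on the strand of the gene. They are Pfkp at chr13:6648807-6648867 on the minus strand, Egln3 at chr12:54204064-54204124 on the minus strand, Pdk1 at chr2:71873118-71873178 on the plus strand, Bnip3 at chr7:138909573-138909633 on the minus strand, and P4ha1 at chr10:59323142-59323202 on the plus strand. For comparison, Ldha, which was not called with all libraries, is shown at chr7:46845742-46845802 on the plus strand.
Pfkp: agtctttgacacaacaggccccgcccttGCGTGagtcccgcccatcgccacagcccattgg
Egln3: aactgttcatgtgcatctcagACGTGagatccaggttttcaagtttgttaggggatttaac
Pdk1: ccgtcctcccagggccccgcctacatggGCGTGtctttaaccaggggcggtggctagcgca
Bnip3: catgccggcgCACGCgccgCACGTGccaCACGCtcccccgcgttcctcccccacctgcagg
P4ha1: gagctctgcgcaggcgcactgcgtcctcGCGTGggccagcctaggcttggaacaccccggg
Ldha: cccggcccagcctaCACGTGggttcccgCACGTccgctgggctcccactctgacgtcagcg
Bnip3 held 3 marked stretches within its 61 bases, including the palindrome CACGTG, and Ldha held CACGTG and a further ACGTG on the minus strand.

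Genome positions of 6 members named above were Aldoc at chr11:78322968-78327781 (ENSMUSG00000017390.9), Ero1l at chr14:45283087-45318771 (ENSMUSG00000021831.7), Bnip3 at chr7:138890836-138909519 (ENSMUSG00000078566.2), Pfkp at chr13:6579768-6648777 (ENSMUSG00000021196.7), Hif1a at chr12:73901375-73947530 (ENSMUSG00000021109.7) and Pfkfb3 at chr2:11471433-11554077 (ENSMUSG00000026773.10), all as whole genes in GRCm38. With 3 libraries against 3, an exact two-sided permutation test of a single gene cannot give a p below 0.1. Aldoc, Ero1l and Pfkfb3 reached 0.1 in all 3 comparisons. Hif1a reached it against control in both treatments, and p was 0.3 between them.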

How the data were processed

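RNA-seq of NPK cells was analysed from the deposited table. The submitters' processing notes name bcl2fastq 1.8.4, TopHat, Cufflinks, DESeq, DESeq2 and the genome build mm9, with no role or order, and the counter and annotation are not given in the sources used here. The authors deposited log2 values, scaled between libraries by a transform not named for these cells, so the number of reads behind a value is unknown. Of 12 value columns 3 matched no sample and were not used. Groups were taken from the labels, 3 libraries each. Members were matched by symbol and 12513 of 12842 Ensembl identifiers (97.4%) were found in GENCODE M21 (GRCm38), which gave positions, transcript lengths and GC content. Each pair of groups was fitted with limma 3.58.1 in R 4.3.3 (lmFit, eBayes with a trend, no covariates), after a filter on values above 3.78 in at least 3 of 6 libraries, with p-values adjusted by Benjamini-Hochberg across every tested gene and a threshold of 0.05. The code was tested on simulated data. Figures were drawn with Python 3.11.15 and matplotlib 3.10.9.

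The members and the other gene lists were chosen with earlier results of these data known. All members are accounted for. Values in each library are given for Hif1a and for members past the threshold and among the 10 with the largest absolute log2 fold change against control in either treatment. From each other list, up to 3 genes past the threshold per comparison are named by the size of their change. Epas1, the single markers and the values in each library of Gapdh, Pkm and Vldlr were added after their values were seen, as were the promoter windows. The lists are subunits and regulators of HIF, further hypoxia-induced genes, other isoenzymes of glycolysis, pyruvate dehydrogenase and its regulators, the pentose phosphate pathway, gluconeogenesis, and Atf4-linked stress genes. Alternatives were a fit without the filter, a fit of all 9 libraries together, the replicate number as a block, quantile normalization, median centring, eBayes without a trend, a lowess correction for GC content (span 0.3, 12513 genes) and leaving out each library. Some items are not reported here.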

Additional observations from a re-analysis of the deposited data

How the results depend on the processing

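Counts of genes and members called were within 1.5 times the main count without a filter, with all 9 libraries in one fit, with quantile normalization, with median centring and with eBayes without a trend. Between shNsd2 and MCTP, 3 glycolytic enzymes were called with the replicate block and 13 other hypoxia genes with the GC correction, against 5 and 8, and the cause was not tested. With the GC correction 57.6% of all genes were called there, against 43.2%, and 13 of 21 is 61.9%. The same replicate numbers did not pair the libraries, since deviations of same-numbered libraries had mean correlations across genes of -0.251, -0.185 and -0.361. With the block 4515, 3399 and 3794 genes were called for shNsd2 and MCTP against control and shNsd2 against MCTP. Enzymes were then 5, 4 and 3, and other hypoxia genes 14, 13 and 6.

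Leaving out each library in turn gave 4332 to 6006 genes called in shNsd2 against control, 2029 to 7372 in MCTP against control and 3361 to 7756 between the treatments. Enzymes called ranged from 5 to 6, 4 to 8 and 3 to 11, and other hypoxia genes from 14 to 18, 12 to 17 and 5 to 16. Both highest values with MCTP came without MCTP library 2. Where 1 library of a group is left out, the other 2 give its spread.

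For single named genes, 363 of 390 values in shNsd2 kept their direction and side of the threshold, 405 of 442 in MCTP and 373 of 416 between the treatments. These are the genes of the naming rule. Among them the reversal was Pfkp between shNsd2 and MCTP, at 0.001 without MCTP library 1 and 0.014 without MCTP library 3, against -0.094 without MCTP library 2, its lowest value and the only one called. Over all 37 members tested, 9, 25 and 24 of 481 values in each comparison changed sign, and none of these values was called before or after.

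The log2 values carry no read numbers, so precision by depth cannot be given. Pfkm, Pfkp, Aldoa, Tpi1, Gapdh and Ankrd37 overlap genes on the opposite strand, and strand use in counting is not given in the sources used here. Positions refer to GRCm38, not the authors' build.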

Other observations

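Further lists of genes around glycolysis were counted in the same fits, with limma and the same threshold, and the comparisons with control share the control libraries. Of all genes tested, 47.8% were called in shNsd2 against control, 35.2% in MCTP against control and 43.2% between the treatments. With a correction for GC content these shares were 56.8%, 47.0% and 57.6%. Of 11 other isoenzymes of glycolysis 4 had a row and 3 were tested. In MCTP all 3 were called higher, Eno3 by 0.35 (adjusted p = 0.023), Bpgm by 0.24 (adjusted p = 0.018) and Pgam2 by 0.18 (adjusted p = 0.025), with every library in the fit. In MCTP the count became 0 of 3 without control library 1 or 3 or MCTP library 1 (16.6% to 20.1% of all genes) and 1 of 3 without control library 2 or MCTP library 3 (17.7% to 23.2% of all genes). Pgam2 was also not called in MCTP with the GC correction, 0.08 (adjusted p = 0.13), with quantile normalization, 0.14 (adjusted p = 0.059), or without a trend, 0.18 (adjusted p = 0.054). In shNsd2 0 of 3 were called, and 0 of 3 at an unadjusted p under 0.05, but the GC correction gave calls for Bpgm, 0.10 (adjusted p = 0.028), and Pgam2, -0.09 (adjusted p = 0.033). Eno3 and Pgam2 were lower in shNsd2 than in MCTP, with log2 differences of -0.28 (adjusted p = 0.039) and -0.21 (adjusted p = 0.0097). Between the treatments it was 1 of 3 without shNsd2 library 1, 2 or 3 or MCTP library 1 or 3 (27.6% to 38.0% of all genes). Bpgm, at -0.15 (adjusted p = 0.0502), was called with the GC correction, -0.13 (adjusted p = 0.019), without the filter, without a trend, with quantile normalization and in a fit of all 9 libraries.

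Of 11 genes of pyruvate dehydrogenase and its regulators 10 had a row. In shNsd2 1 higher and 4 lower were called, in MCTP 2 higher and 4 lower, and between the treatments 2 higher and 3 lower. These are 50.0%, 60.0% and 50.0% of the 10, beside 47.8%, 35.2% and 43.2% of all genes. For shNsd2 the count was 2 of 10 without shNsd2 library 2 (35.5% of all genes) and 3 of 10 without control library 2 (39.1% of all genes). In MCTP the count became 2 of 10 without control library 1 or MCTP library 1 (16.6% to 19.4% of all genes) and 3 of 10 without control library 2 (17.7% of all genes). Between the treatments it was 2 of 10 without shNsd2 library 1 or MCTP library 1 (27.6% to 29.2% of all genes) and 3 of 10 without shNsd2 library 2 or 3 (28% of all genes). The log2 fold changes in shNsd2 were -0.35 for the phosphatase Pdp2, -0.17 for the mitochondrial pyruvate carrier Mpc1 and -0.17 for the subunit Pdha1. In MCTP they were 0.46 for the kinase Pdk2, -0.44 for Pdp2 and -0.43 for the subunit Dld. Between the treatments they were -0.47 for Pdk2, 0.38 for Dld and -0.24 for Mpc2. With the GC correction 6, 7 and 6 of 10 were called. Dld was then -0.23 (adjusted p = 0.0039) in MCTP and 0.22 (adjusted p = 0.0032) between the treatments, and in shNsd2 Mpc1 was -0.11 (adjusted p = 0.0092) and Pdha1 -0.11 (adjusted p = 0.0036). The calls of Dld were lost without any 1 of 4 libraries in MCTP and of 5 between the treatments, and that of Mpc1 in shNsd2 without shNsd2 library 2.

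All 7 genes of the pentose phosphate pathway had a row. In shNsd2 2 genes, all higher, were called, in MCTP 2 higher and 2 lower, and between the treatments 2 higher and 1 lower. As shares of the 7 these are 28.6%, 57.1% and 42.9%, beside 47.8%, 35.2% and 43.2% of all genes. For shNsd2 the count was 1 of 7 without control library 3 or shNsd2 library 1 or 2 (35.5% to 42.0% of all genes). In MCTP the count became 2 of 7 without control library 1, 2 or 3 or MCTP library 1 (16.6% to 20.1% of all genes). Between the treatments it was 1 of 7 without shNsd2 library 1, 2 or 3 or MCTP library 1 (27.6% to 29.2% of all genes) and 6 of 7 without MCTP library 2 (63.6% of all genes). Pgd, the dehydrogenase of the oxidative branch, changed by 0.25 (adjusted p = 0.0024) in shNsd2 and 0.50 (adjusted p = 0.0044) in MCTP, and Pgls, the lactonase, by 0.15 (adjusted p = 0.026) in shNsd2. Rpia, the ribose isomerase, changed by -0.62 (adjusted p = 2.2e-04) in MCTP and Taldo1, transaldolase, by 0.29 (adjusted p = 0.026). Between the treatments Rpia differed by 0.62, G6pdx by 0.26 and Taldo1 by -0.22. With the GC correction 2, 5 and 4 of 7 were called. The call of Pgls was lost with it, 0.07 (adjusted p = 0.091), in a fit of all 9 libraries, 0.15 (adjusted p = 0.19), and without control library 3 or shNsd2 library 1 or 2. Pgd, at -0.25 (adjusted p = 0.056) between the treatments, was called there with the GC correction, -0.21 (adjusted p = 0.014), with quantile normalization, in a fit of all 9 libraries and without MCTP library 2. The calls of Taldo1 were lost without any 1 of 5 libraries in MCTP and between the treatments, where median centring and a fit without a trend lost it too, and that of G6pdx between the treatments without any 1 of 4.

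Of 7 genes of gluconeogenesis and fructose-bisphosphate control 6 had a row. In shNsd2 3 higher and 1 lower were called, in MCTP 2 higher and 1 lower, and between the treatments 2 higher and 2 lower. The shares of the 6 are 66.7%, 50.0% and 66.7%, beside 47.8%, 35.2% and 43.2% of all genes. Pck2, the mitochondrial form of phosphoenolpyruvate carboxykinase, changed by -1.19 (adjusted p = 5.6e-04) in MCTP and differed by 1.22 (adjusted p = 5.5e-05) between the treatments. In shNsd2 Tigar, Fbp2 and Pcx changed by 0.25, 0.18 and -0.17. In MCTP Fbp2 and Tigar changed by 0.51 and 0.25, and between the treatments Fbp2 and Pcx differed by -0.33 and -0.28. In shNsd2 the call of Pcx was lost with quantile normalization, -0.13 (adjusted p = 0.12), with median centring, -0.15 (adjusted p = 0.054), and without any 1 of 5 libraries. In MCTP that of Tigar was lost without any 1 of 4. Counts with the GC correction were the same, 4, 3 and 4 of 6.

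All 8 Atf4-linked stress genes had a row. In shNsd2 2 genes, all higher, were called, in MCTP 2 higher and 6 lower, and between the treatments 7 higher and 1 lower. In shNsd2 this is 25.0%, and in the other comparisons all 8 were called, beside 47.8%, 35.2% and 43.2% of all genes. For shNsd2 the count was 1 of 8 without control library 2 or shNsd2 library 1, 2 or 3 (35.5% to 46.3% of all genes) and 6 of 8 without control library 3 (42% of all genes). In MCTP the count became 4 of 8 without MCTP library 1 (16.6% of all genes) and 5 of 8 without control library 2 (17.7% of all genes). In shNsd2 Sesn2 and Trib3 rose by 0.53 and 0.47, with the call of Trib3 lost without any 1 of 4 libraries and its value 0.26 (adjusted p = 0.0053) without control library 1. In MCTP the log2 fold changes of Trib3, Chac1 and Asns were -1.43, -1.29 and -1.29, and between the treatments 1.90, 1.45 and 1.07.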
